A study of Mus musculus with 16 samples.

Results

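Left ventricles of 4 male mice with a TRAF2 transgene and no other transgene (TRAF2LC) were set against those of 4 male littermate controls, which the design text calls wild type. These are 8 of the 16 hearts of the series, chosen by the genotype in their titles. The other 8 hearts, 4 with an altered IkBa transgene (IkBaDN) and 4 with both transgenes (double transgenic), enter the estimate of the spread and the test of interaction. Per the labels the Myh6 promoter, which is active in cardiomyocytes, drives the TRAF2 transgene. A change in the RNA of whole ventricle may lie in these cells or in others. The labels give neither the age of the mice nor the number of transgenic lines. RNA from whole ventricle was hybridised to 1 single-colour Illumina array per heart, and the title of the series asks about protection of the heart by TRAF2 through non-canonical NF-kB signalling.

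TRAF2 is an adapter that binds the inner part of TNF family receptors. It brings in the cIAP ubiquitin ligases and the IKK kinases, and from there the canonical branch of NF-kB is switched on when IkBa is destroyed. With TRAF3 and the cIAPs, TRAF2 also keeps the kinase NIK (Map3k14) low, and NIK drives the non-canonical branch, whose dimers contain RelB. In heart muscle TRAF2 is known for signals that protect cells from TNF.

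A probe was kept when its detection p lay below 0.01 in 4 or more of the 16 hearts. This left 9449 of 25697 probes, for 6902 named genes and 517 unnamed probes. The probes of Irf7 and Tmem130, and a dimmer probe each of Bcl2, Vac14, Cacnb1 and Tnip1, were detected on 4 TRAF2LC arrays and no other array. The probes of Rnase1, Lrp11, Abhd2, Pbk and Lypd6 were detected on 4 TRAF2LC arrays and on fewer than 4 others. All of these probes passed the filter only through the group where they are high, so their calls are no independent support. Levels below are log2 intensities after background correction and quantile normalization, given in the order of replicates 1 to 4, and a change is TRAF2LC minus control on that log2 scale with its limma standard error (SE). The SE pools the spread of all 4 genotypes, so it may be too small for genes that spread more among TRAF2LC hearts. A probe is called when its p from that fit, adjusted by Benjamini-Hochberg over all 9449 probes, lies under 0.05. The 8 arrays had mean deposited signals of 233.3 to 359.5 and 8559 to 9397 detected probes, and TRAF2LC replicate 4 had the highest value of both. Of 19 markers of ventricular cardiomyocytes on the array 17 were tested, 6 were higher, 11 lower and 0 called, with a median change of -0.04. TRAF2LC 4 stood apart from its group and counts are therefore also given without it. Its description carries the number 6155, outside the run of 6120 to 6135 on the other 15 arrays, and the meaning of these numbers is not given. The arrays also deviated together by their place in the deposited table, whose first 8 columns hold control 1 and 2 and TRAF2LC 1 and 4 and whose last 8 hold the other 4 hearts, so changes within each set of columns are given for the leading genes.

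More genes rose than fell with the TRAF2 transgene. Of the 9449 probes, 98 were called (1.04%): 70 higher in TRAF2LC (0.741%) and 28 lower (0.296%). They stand for 82 named genes, 57 of them higher and 25 lower, and 9 unnamed probes. On each of the 98 probes all 4 TRAF2LC hearts lay beyond all 4 controls, which was so for 669 of all tested probes (7.08%). A change of 2-fold or more was found on 41 of the raised probes and 6 of the lowered ones. The bulk of the ventricle's genes did not move as a body: 3283 of 6902 genes were higher, with a median change of -0.01. Without TRAF2LC replicate 4 the fit called 50 probes, 49 of them among the 98. With only the 2 genotypes in the fit 34 probes were called, 33 of them among the 98, and 25 of the 98 were called in every one of the 19 other planned settings that tested them. The split into higher and lower calls moved with the scaling: median scaling of the arrays, which puts the median of all probes at 0.13, called 67 higher and 3 lower. With the authors' own scaling, where that median was 0.07, the calls were 70 and 9.

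**Figure D1:**
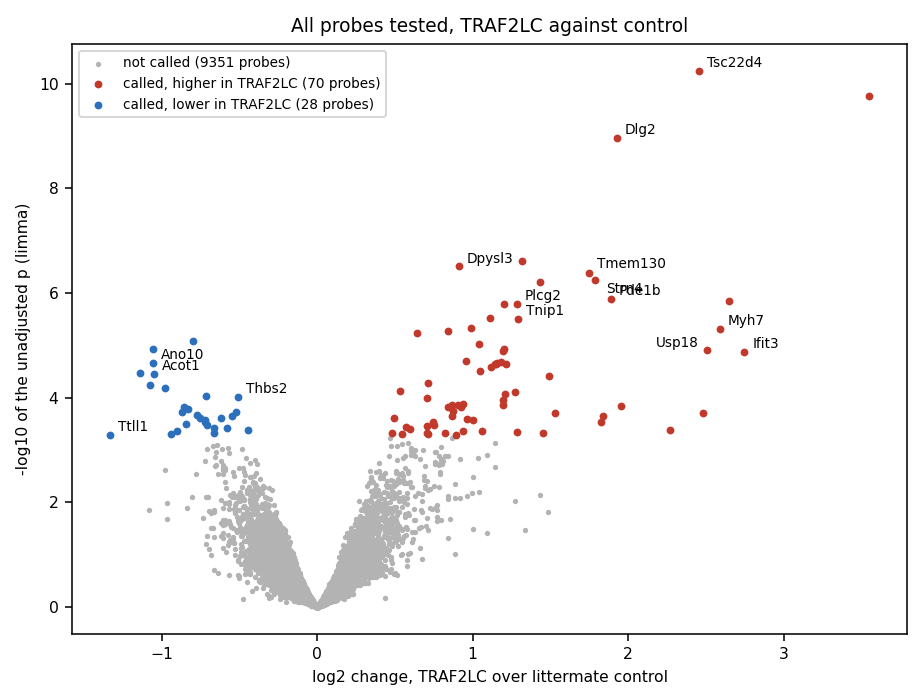
Log2 change of TRAF2LC over littermate control (horizontal) against -log10 of the unadjusted limma p (vertical) for 9449 probes, with the 70 probes called higher in red, the 28 called lower in blue and the rest in grey. Tsc22d4, an unnamed probe and Dlg2 stand highest, and the changes on the raised side reach further from 0 than those on the lowered side.

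The transgene itself was examined first. Traf2 stood at 5.76, 5.67, 6.0 and 6.06 in the controls and at 6.32, 6.26, 6.18 and 5.78 in the TRAF2LC hearts, a change of 0.26 ± 0.14 that was not called (adjusted p = 0.556). TRAF2LC 1, 2 and 3 lay above every control, while TRAF2LC 4 lay among them. No source used here says whether this probe can see the message of the transgene, so it checks no label. Myh6, which encodes the alpha form of myosin heavy chain and lends the transgene its promoter, was at 14.39, 14.37, 14.42 and 14.44 in control and 14.40, 14.51, 14.54 and 14.40 in TRAF2LC hearts, with a change of 0.06 ± 0.09 (adjusted p = 0.879), and its dimmer probe one of -0.25 (adjusted p = 0.837).

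Among NF-kB subunits and inhibitors, 8 of 9 genes tested were higher in TRAF2LC and 2 rose, Relb and Tnip1. The share called higher over all genes was 0.782%. The list median was 0.25, against -0.01 over all genes. Relb, the subunit of the non-canonical branch, had levels of 6.72, 6.91, 6.06 and 6.41 in control and 7.88, 7.43, 7.47 and 8.17 in TRAF2LC hearts. The lowest TRAF2LC heart was 0.52 above the highest control. Relb rose 2.32-fold (change 1.21 ± 0.21, adjusted p = 0.00683), though in a fit of the 2 genotypes alone the adjusted p was 0.0531. Tnip1, whose product binds the ubiquitin-editing inhibitor A20, went from 9.28, 9.20, 9.28 and 9.43 to 10.14, 10.55, 10.32 and 11.35. The 4 controls lay within 0.23 of each other and TRAF2LC 4 was the highest heart. Tnip1 rose 2.45-fold (change 1.29 ± 0.19, adjusted p = 0.0021), a call that held with the 2 genotypes alone (adjusted p = 0.0483). Of the 4 probes of Tnip1 3 were called and 1 of the dimmer ones was not (change 0.15, adjusted p = 0.904). Of the 3 called, 1 was detected on 4 TRAF2LC arrays and no other array, so its call is no separate support.

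Nfkbia, which encodes IkBa and is a feedback target of NF-kB, was at 8.08, 8.47, 8.50 and 8.39 in control and 8.86, 8.59, 8.63 and 8.78 in TRAF2LC hearts. Its groups did not overlap, yet the change of 0.36 ± 0.13 was not called (adjusted p = 0.316). Rela, the main canonical subunit, had a change of 0.12 ± 0.10. Tlr2, a Toll-like receptor that signals to NF-kB, was at 6.17, 6.53, 6.59 and 6.28 and 7.52, 7.47, 7.47 and 9.07. TRAF2LC 1, 2 and 3 stood within 0.05 of each other and TRAF2LC 4 was 1.56 above them. Tlr2 rose 2.81-fold (change 1.49 ± 0.27, adjusted p = 0.00972, and 0.116 with the 2 genotypes alone), and by 1.09 without TRAF2LC 4.

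Of 17 tested TRAF adapters, cIAPs, NIK and IKK genes 0 were called, a count near the 1.04% of all probes, and their median change of 0.08 was 0.02 without TRAF2LC 4. NIK (Map3k14), detected on 2 control arrays, had the smallest p, with a change of 0.74 ± 0.27 (adjusted p = 0.297). Of 12 canonical NF-kB targets tested 0 were called, 7 being higher. Junb, of the AP-1 family, came closest, with 8.49, 8.91, 8.60 and 8.96 in control and 9.16, 9.15, 9.20 and 9.77 in TRAF2LC hearts. All 4 tested targets of the non-canonical branch were lower without being called, Cxcl12 with a change of -0.34 ± 0.15 (0.26 on its dimmer probe) and the cytokine gene Tnfsf13b with -0.21 ± 0.18.

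The promoter of Tnip1 is shown because it holds the NF-kB consensus of 10 bases, in capitals, where 3 overlapping matches run from 58 bases before the start of transcription. The sequence is from RefSeq (GRCm38.p6, chr11:54962941-54963190, minus strand) and ends at the base before the start.
Tnip1: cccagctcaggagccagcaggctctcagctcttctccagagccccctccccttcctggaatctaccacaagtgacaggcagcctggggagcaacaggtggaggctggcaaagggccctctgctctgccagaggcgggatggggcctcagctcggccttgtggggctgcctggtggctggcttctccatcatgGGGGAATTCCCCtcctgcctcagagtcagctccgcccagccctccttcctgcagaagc
Searched on both strands from 250 bases before to 50 after each start, the consensus was found for 9 of the 46 raised genes with an entry (19.6%), for 1 of 13 lowered genes (7.69%) and for 362 of 5628 tested genes (6.43%). Beside Tnip1 the raised genes with a match were Ddr1, Lrp11, Mvp, Rnase1, Stap2, Tlr2, Tmem176a and Tmem176b. Of these, Lrp11 and Rnase1 passed the detection filter only through the TRAF2LC arrays. A match describes the letters of the window and is no measured binding.

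Of the 15 largest increases among named genes, 6 were of genes that interferon induces. Ifit3, whose product restrains viral RNA, was at 7.59, 7.17, 7.65 and 7.58 in control and 10.06, 9.42, 9.30 and 12.20 in TRAF2LC hearts. All 4 TRAF2LC hearts were at least 1.65 above the highest control, and TRAF2LC 4 was 2.14 above the next TRAF2LC heart. Ifit3 rose 6.72-fold (change 2.75 ± 0.45, adjusted p = 0.0051), and its change was 2.10 without TRAF2LC 4. Ifit2, of the same family and detected on 1 control array, was at 6.21, 5.58, 5.54 and 5.42 and 7.76, 6.91, 7.04 and 10.13 and rose 4.82-fold (change 2.27 ± 0.52, adjusted p = 0.0472). Rsad2, the antiviral enzyme viperin, was at 8.71, 8.41, 8.96 and 8.17 and 10.17, 9.89, 9.49 and 12.07 and rose 3.58-fold (change 1.84 ± 0.39, adjusted p = 0.0331). Dhx58, which binds viral RNA as LGP2, was below detection in every control heart and had levels of 5.99, 6.21, 6.04 and 7.88 in the TRAF2LC hearts, at least 1.90-fold higher (adjusted p = 0.0488).

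The ISG15 system, in which a ubiquitin-like protein is fixed to others, had 3 of its 4 tested genes called. The share called higher over all genes was 0.782%. Isg15, the tag itself, was at 5.5, 6.07, 6.37 and 6.6 in control and 8.52, 7.95, 7.28 and 10.74 in TRAF2LC hearts. It rose 5.60-fold (change 2.49 ± 0.52, adjusted p = 0.0308). Within the first set of columns the change was 3.84 and within the last set 1.13. Usp18, the protease that takes ISG15 off again, was at 5.93, 5.88, 6.03 and 6.12 and 8.30, 7.94, 7.42 and 10.33 and rose 5.68-fold (change 2.51 ± 0.41, adjusted p = 0.005). Uba7, the enzyme that activates ISG15, was at 8.69, 8.52, 8.67 and 8.62 and 9.09, 9.17, 8.90 and 9.63, a smaller rise of 1.49-fold (change 0.57 ± 0.13, adjusted p = 0.0427). Among receptors and signalling genes of the pathway only Irf7, a transcription factor that amplifies interferon, was called, 1 of 14. No control heart had Irf7 above detection, and the TRAF2LC hearts had it at 6.4, 5.98, 5.74 and 8.43, at least 2.05-fold higher (adjusted p = 0.038).

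These 8 interferon genes share their order of hearts at the top, since TRAF2LC 4 was the highest heart for each of them. All 8 lost the call with the 2 genotypes alone, at adjusted p between 0.0756 (Ifit3) and 0.246 (Dhx58). Without TRAF2LC 4, in the fit of 15 arrays, 7 of the 8 stayed called, and Uba7 did not (adjusted p = 0.101). Their sizes were smaller there: the change was 1.90 for Usp18, 1.78 for Isg15 and 1.55 for Ifit2, and Irf7 was at least 1.35-fold higher. Leaving out control 1 instead lost the call of Isg15 (adjusted p = 0.107) and Dhx58 (0.146). Leaving out control 2 lost those of Ifit2 (adjusted p = 0.14), Rsad2 (0.107), Irf7 (0.118) and Uba7 (0.163). Ifit3 and the brighter probe of Usp18 stayed called whichever control or TRAF2LC array was left out. Over the 24 interferon effectors tested, 22 were higher and 4 were called, with a median change of 0.78, and 0.44 without TRAF2LC 4. Among all tested genes 0.782% were called higher. The list median by heart was 0.53, 0.47, 0.29 and 2.00 above the control mean in TRAF2LC 1 to 4, against -0.05 to 0.11 in the controls. The GTPase genes Igtp and Gbp3, 2 of the list's other members, show the difference: Igtp was at 8.04, 8.03, 7.90 and 8.07 in control and 8.39, 8.77, 8.73 and 11.50 in TRAF2LC hearts and was not called (adjusted p = 0.419).

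The windows of Ifit3, Isg15 and Rsad2 are printed for their interferon-stimulated response elements. Capitals mark each match, on either strand, to GAAA followed by 2 bases of any kind and GAAA again, and overlapping matches in Isg15 run together. All 3 windows are the 250 bases before the start from RefSeq (GRCm38.p6), at chr19:34583279-34583528 on the plus strand for Ifit3, chr4:156200819-156201068 on the minus strand for Isg15 and chr12:26456453-26456702 on the minus strand for Rsad2.
Ifit3: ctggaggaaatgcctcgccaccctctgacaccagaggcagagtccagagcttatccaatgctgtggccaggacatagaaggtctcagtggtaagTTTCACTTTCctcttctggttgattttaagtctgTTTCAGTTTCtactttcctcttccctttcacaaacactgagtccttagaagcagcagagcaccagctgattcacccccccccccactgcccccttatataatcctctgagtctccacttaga
Isg15: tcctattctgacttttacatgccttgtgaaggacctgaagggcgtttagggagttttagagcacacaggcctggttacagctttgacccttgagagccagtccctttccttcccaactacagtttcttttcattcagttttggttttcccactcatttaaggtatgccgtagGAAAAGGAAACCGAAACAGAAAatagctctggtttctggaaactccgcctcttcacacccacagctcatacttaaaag
Rsad2: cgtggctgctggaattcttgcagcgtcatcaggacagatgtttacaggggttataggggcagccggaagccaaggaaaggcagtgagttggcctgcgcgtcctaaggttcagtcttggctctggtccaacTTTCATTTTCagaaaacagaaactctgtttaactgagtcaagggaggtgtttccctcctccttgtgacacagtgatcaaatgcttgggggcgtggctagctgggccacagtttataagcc
In Ifit3 the 2 matches begin 156 and 122 bases before the start, in Isg15 the 3 begin 78, 72 and 66 before it, and in Rsad2 the match begins 120 before it. Over the 18 tested interferon effectors with an entry, 12 held the element (66.7%), against 206 of 5628 tested genes (3.66%). Among raised genes of any kind 5 of 46 held it (10.9%), Pde1b and Rnase1 included, and among the called interferon genes 3 of 6. The windows of Ifit2 and Irf7 held no match to these letters.

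Among genes of the contractile apparatus and of muscle stress, Myh7 moved most. It encodes the beta myosin heavy chain, the slow form of the fetal ventricle that mouse hearts replace after birth by the alpha form. Myh7 was at 8.29, 7.92, 7.65 and 6.86 in control and 9.12, 10.59, 10.03 and 11.34 in TRAF2LC hearts. The spread in either group was wide, and the lowest TRAF2LC heart was 0.83 above the highest control. Myh7 rose 6.03-fold (change 2.59 ± 0.39, adjusted p = 0.0029), and the call held with the 2 genotypes alone (adjusted p = 0.0434) and without TRAF2LC 4 (change 2.24, adjusted p = 0.00707). The change was 2.13 within the first set of columns and 3.06 within the last.

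Of the 2 RefSeq windows of Myh7, 1 holds an MCAT element, CATTCC, which TEAD factors are known to bind in muscle genes; it is printed in capitals as it reads on this strand (GRCm38.p6, chr14:54994627-54994876, minus strand, ending at the base before the start).
Myh7: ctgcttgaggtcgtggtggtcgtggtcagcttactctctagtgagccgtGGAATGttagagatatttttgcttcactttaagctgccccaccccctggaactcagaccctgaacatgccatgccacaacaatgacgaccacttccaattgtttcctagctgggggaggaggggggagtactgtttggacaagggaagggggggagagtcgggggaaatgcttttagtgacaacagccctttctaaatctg
The match begins 201 bases before the start. CATTCC on either strand was present for 12 of 46 raised genes (26.1%), 2 of 13 lowered genes (15.4%) and 827 of 5628 tested genes (14.7%).

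Ankrd1, a stress-induced ankyrin repeat protein of the sarcomere, was measured by 2 probes. The called, dimmer probe was at 10.50, 10.16, 10.12 and 9.70 in control and 11.18, 11.24, 11.31 and 11.53 in TRAF2LC hearts (change 1.20 ± 0.20, adjusted p = 0.005). The brighter probe had a change of 0.66 ± 0.28 with overlapping groups and was not called (adjusted p = 0.405). Rcan1, a feedback inhibitor of calcineurin, was alike: its dimmer probe rose, with a change of 1.27 ± 0.24 (adjusted p = 0.0175), and its brighter probe, at 10.57, 10.56, 10.52 and 10.45 and 11.03, 10.93, 10.86 and 11.33, did not overlap between groups and missed the threshold (change 0.51 ± 0.13, adjusted p = 0.0732). Of the 21 tested genes of the fetal and hypertrophy list, 17 were higher, Myh7 rose and Cacna1h fell, with a median of 0.22. Among all tested genes 0.782% were called higher and 0.333% lower. Nppa and Nppb, the natriuretic peptides, had changes of 0.01 ± 0.11 and 0.48 ± 0.19, and Acta1, the skeletal alpha actin of the fetal programme, had one of 1.04 ± 0.33, none of them called.

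Pde1b, a phosphodiesterase that breaks down cyclic nucleotides when calmodulin binds calcium, was at 5.93, 6.45, 6.52 and 6.34 in control and 7.68, 8.34, 7.71 and 9.07 in TRAF2LC hearts. All TRAF2LC hearts lay at least 1.15 above the highest control. Pde1b rose 3.71-fold (change 1.89 ± 0.26, adjusted p = 0.00129). Of 12 phosphodiesterase and cyclic nucleotide genes tested it was the only one called, where 0.782% of all genes were called higher. Grk5, a kinase that desensitises adrenergic and other receptors, was at 6.13, 5.92, 5.95 and 5.65 and 6.56, 7.25, 6.56 and 7.48 and rose 2.07-fold (change 1.05 ± 0.19, adjusted p = 0.00853, and 0.0943 with the 2 genotypes alone). Cacnb1, a regulatory subunit of calcium channels, was called only on a dimmer probe that was detected on 0 control arrays, at least 1.42-fold higher, and its brighter probe had a change of 0.05 ± 0.17 (adjusted p = 0.962).

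Channel genes were among those that fell. Of 16 potassium, sodium and chloride channel genes tested 14 were lower and 2 fell, Ano10 and Kcnv2. Over all genes 0.333% were called lower. The list median was -0.24, and -0.13 without TRAF2LC 4. By heart it was -0.22, -0.08, -0.09 and -0.67 in TRAF2LC 1 to 4, against -0.10 to 0.09 in the controls. Ano10, of the anoctamin family, was at 10.06, 10.09, 10.02 and 10.03 in control and 8.86, 9.11, 9.48 and 8.53 in TRAF2LC hearts. The controls lay within 0.07 of each other, and the TRAF2LC hearts spread over 0.95 below them. Ano10 fell by 1.05 (adjusted p = 0.00683), 2.08-fold. Kcnv2, a silent subunit of voltage-gated potassium channels, was detected on 3 TRAF2LC arrays. It was at 6.82, 6.74, 7.14 and 6.99 and 6.11, 6.08, 6.52 and 5.22. Kcnv2 fell by 0.94 (adjusted p = 0.0493, and 0.18 with the 2 genotypes alone). Cacna1h, a T-type calcium channel of the fetal ventricle, was at 8.27, 8.23, 8.18 and 8.23 and 7.85, 7.82, 7.53 and 7.26 and fell by 0.62 (adjusted p = 0.0339), opposite in direction to Myh7 in the same list.

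Tsc22d4, a leucine zipper protein of the TSC22 domain family, had the smallest p of all probes. Its levels were 8.54, 8.50, 8.16 and 8.77 in control and 11.13, 10.78, 10.69 and 11.20 in TRAF2LC hearts. The 4 TRAF2LC hearts lay within 0.51 of each other, 1.92 or more above every control. Tsc22d4 rose 5.5-fold (change 2.46 ± 0.17, adjusted p = 5.34e-07), by 2.65 within the first set of columns and 2.27 within the last. Other TSC22 family members did not share it, Tsc22d1 with a change of -0.34 ± 0.17 and Tsc22d3 with -0.14 ± 0.18, neither called.

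Dlg2 encodes a scaffold protein of cell junctions and synapses. It was not detected in any control heart and was detected in all 4 TRAF2LC hearts, at 6.75, 6.64, 7.10 and 7.45. It was at least 2.61-fold higher (adjusted p = 3.48e-06). Strn4, a striatin that carries phosphatase and kinase complexes, was at 9.21, 9.06, 9.01 and 9.47 in control and 10.83, 10.64, 10.51 and 11.92 in TRAF2LC hearts. It rose 3.45-fold (change 1.79 ± 0.23, adjusted p = 0.000733), with every TRAF2LC heart at least 1.03 above every control. Tmem130, a membrane protein detected on 0 control arrays, was at 6.33, 6.87, 6.07 and 7.34 and at least 2.07-fold higher (adjusted p = 0.000667). These calls held with the 2 genotypes alone, at adjusted p of 0.00226 for Dlg2 and 0.0296 for Strn4.

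Further signalling genes rose by less. Plcg2, a phospholipase C that splits phosphoinositides, was at 7.66, 7.68, 7.01 and 7.38 in control and 8.89, 8.63, 8.52 and 8.83 in TRAF2LC hearts and rose 2.44-fold (change 1.28 ± 0.18, adjusted p = 0.00129). Its TRAF2LC hearts lay within 0.37 of each other. Smaller rises were those of the adapter Stap2 (1.64-fold), the collagen receptor Ddr1 (1.46-fold), the tyrosine phosphatase Ptpn14 (1.52-fold) and Ddah1, which clears an inhibitor of nitric oxide synthesis (1.63-fold). With the 2 genotypes alone the calls of Plcg2 and Stap2 held and those of Ddr1 (0.15), Ptpn14 (0.155) and Ddah1 (0.0913) were lost. Dpysl3, a collapsin response mediator, combined a modest rise with little spread: 7.97, 8.29, 8.09 and 8.18 in control and 9.16, 9.04, 9.02 and 8.96 in TRAF2LC hearts. Its TRAF2LC hearts lay within 0.20 of each other, and the change was 0.91 ± 0.11 (adjusted p = 0.000587, and 0.0115 with the 2 genotypes alone).

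**Figure D2:**
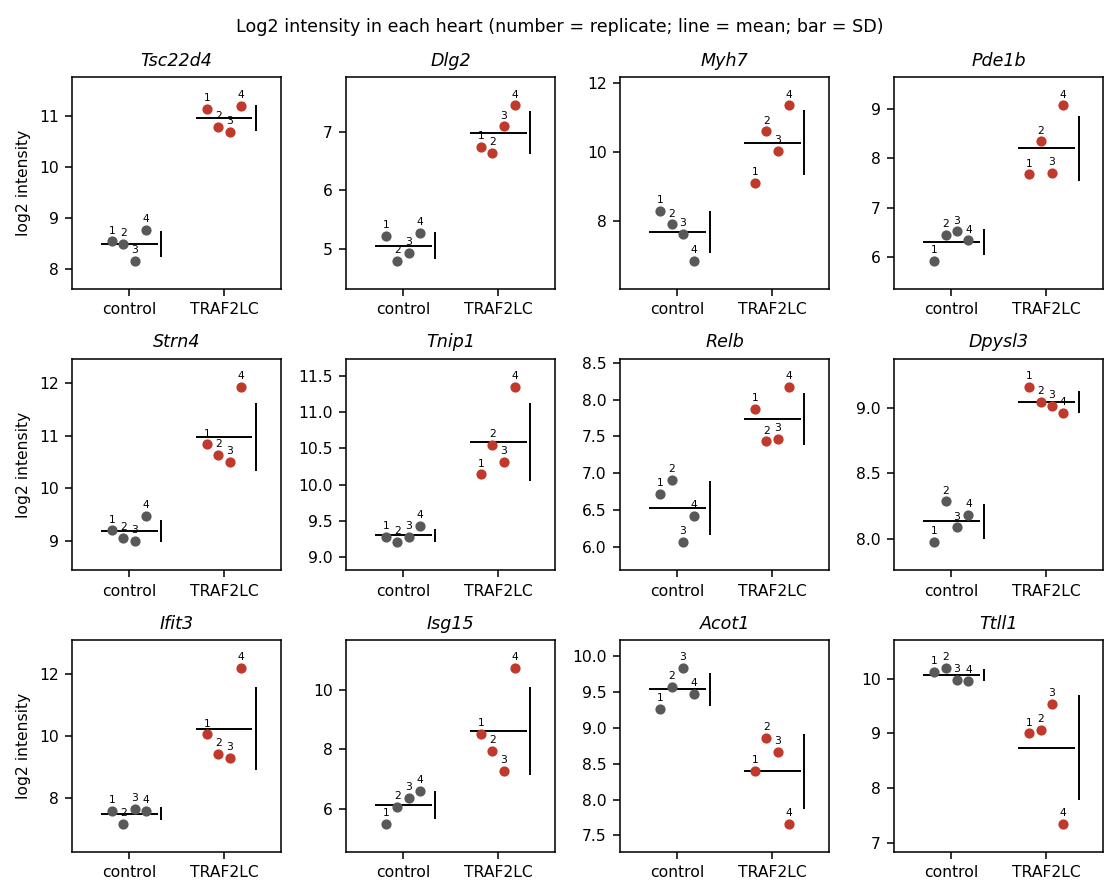
Log2 intensity (vertical) of 12 genes in each control (grey) and TRAF2LC (red) heart, each by its brightest tested probe; numbers are replicates, horizontal lines means and vertical bars SD (n = 4 per genotype). The groups do not overlap for any of the 12. TRAF2LC 4 is the highest TRAF2LC heart for every raised gene shown except Dpysl3, and the lowest for Acot1 and Ttll1. Tsc22d4 and Dpysl3 vary little among TRAF2LC hearts.

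The next raised genes were set side by side after they were called and form no list. Both probes of Vac14, the scaffold of the kinase complex that makes the phosphoinositide of late endosomes, were called. Its brighter probe was at 7.07, 6.98, 7.04 and 7.01 in control and 8.06, 8.13, 8.35 and 8.38 in TRAF2LC hearts, a rise of 2.31-fold (change 1.21 ± 0.24, adjusted p = 0.019). The controls lay within 0.09 of each other. The dimmer probe of Vac14 was detected on 4 TRAF2LC arrays and no other array, so its call is no separate support. Rnase1, a secreted ribonuclease, was detected on 2 control arrays and no IkBaDN or double transgenic array. It therefore passed the filter only through the TRAF2LC arrays. Rnase1 was at 5.35, 5.64, 5.63 and 5.16 in control and 6.39, 6.83, 6.88 and 7.42 in TRAF2LC hearts. It rose 2.71-fold (change 1.44 ± 0.18, adjusted p = 0.000733). Rab42, a small GTPase of vesicle traffic, rose 2.22-fold (adjusted p = 0.00683) on its brighter probe, while the dimmer had a change of 0.49 that was not called (adjusted p = 0.225). Mvp, the main protein of vault particles, rose 2.23-fold (adjusted p = 0.00683). Tmem176a and Tmem176b, paired membrane proteins of immune cells, rose 2.88-fold and 2.29-fold, and here TRAF2LC 4 was the highest heart for Tmem176a (7.43, 8.01, 7.61 and 8.99) and the lowest TRAF2LC heart for Tmem176b (7.44, 8.08, 7.94 and 7.12). Igfals, which holds circulating IGF in a complex, rose 2.17-fold (adjusted p = 0.00742), and Tspo, a cholesterol-binding protein of the outer mitochondrial membrane, 1.63-fold (adjusted p = 0.0427). Both other probes of Tspo were higher and missed the threshold. In the fit of 2 genotypes Vac14, Rnase1 and Rab42 stayed called, while Mvp (0.0913), Tmem176a (0.0793), Tmem176b (0.0913), Igfals (0.0553) and Tspo (0.116) did not.

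The cell cycle list had 33 genes on the array, of which 19 were tested. Top2a, Cdk1, Ccnb2, Plk1 and Pcna were among those below the detection filter. The list had 1 of 19 tested genes called, Tuba1b, with 14 higher and a median of 0.25. The share called higher over all genes was 0.782%. Genes outside that list were picked from the calls. Prc1, which bundles microtubules at the midzone in cytokinesis, was at 5.51, 6.09, 5.93 and 6.22 in control and 6.78, 7.17, 7.30 and 7.31 in TRAF2LC hearts and rose 2.30-fold (change 1.20 ± 0.20, adjusted p = 0.005). The mitotic kinase Pbk and the transcription factor E2f1 were below detection in every control heart. Their rises are therefore bounds, at least 1.20-fold for Pbk and at least 1.47-fold for E2f1. Pbk passed the filter only through the TRAF2LC arrays. The mitotic motor Kif22 rose 1.64-fold, and Tuba1b, an alpha tubulin, rose from 12.42, 12.47, 12.54 and 12.57 to 12.98, 13.04, 13.10 and 13.71 (change 0.71 ± 0.14, adjusted p = 0.0204). Birc5 (survivin) and Mcm2 of the replicative helicase, both in the list, with changes of 0.80 ± 0.20 and 0.79 ± 0.20, were not called (adjusted p = 0.0758 and 0.0972). Xpc, which finds damaged bases, rose 1.44-fold and Parp3, which acts at strand breaks, 1.90-fold. Bcl2, the inhibitor of mitochondrial cell death, was called on both of its probes. The brighter one was at 5.85, 5.69, 5.75 and 5.98 in control and 6.80, 6.72, 6.35 and 7.42 in TRAF2LC hearts (change 1.0 ± 0.22, adjusted p = 0.035). The dimmer one was detected on 4 TRAF2LC arrays and no other array. It passed the filter only through the group where it is high. Of these genes Prc1, Parp3 and the dimmer probe of Bcl2 stayed called with the 2 genotypes alone, and Pbk (0.0538), E2f1 (0.114), Kif22 (0.146), Tuba1b (0.135), Xpc (0.116) and the brighter probe of Bcl2 (0.0892) were not. Bcl2 was the only one called of 24 tested genes of cell death control, whose median was -0.02 (0.14 with median scaling of the arrays).

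In bulk tissue more cells of a type and more RNA per cell cannot be told apart, which touches the immune genes first. Cx3cr1, the fractalkine receptor of resident macrophages, was at 6.58, 5.79, 6.15 and 6.04 in control and 6.90, 7.11, 6.87 and 7.15 in TRAF2LC hearts. It rose 1.82-fold (change 0.87 ± 0.18, adjusted p = 0.0258). The call was lost with the 2 genotypes alone (adjusted p = 0.0764) and without TRAF2LC 4 (adjusted p = 0.0985). All 4 TRAF2LC hearts lay within 0.28 of each other. Of 21 macrophage markers on the array 13 were tested, and Adgre1, Cd163, Itgam and Ptprc were among those below the detection filter. Of the 13 tested 12 were higher, 6 did not overlap between groups (7.45% of all genes) and Cx3cr1 was called (0.782% of all genes were called higher). Their median was 0.40, and 0.22 without TRAF2LC 4. Their summed intensity on the linear scale was 6489 to 7170 in control and 7875 to 12250 in TRAF2LC hearts. The part of macrophages in the interferon and antigen genes was not tested. Of 18 lymphocyte and granulocyte markers on the array only Nkg7 and S100a8 were tested, and the defining markers Cd3e, Cd79a and S100a9 were below the detection filter. Antigen presentation genes were higher in 18 of 18 without a call, at a median of 0.45, and 0.325 without TRAF2LC 4. By heart the list median was 0.25, 0.37, 0.28 and 1.29 in TRAF2LC 1 to 4. B2m, the light chain of class I molecules, was at 11.10, 11.30, 11.62 and 11.33 in control and 11.67, 11.94, 12.01 and 12.88 in TRAF2LC hearts. The peptide transporter Tap1 had the smallest p (change 1.09 ± 0.28, adjusted p = 0.0966).

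The matrix and TGF-beta list had 1 gene called higher and 1 called lower, where 0.782% of all genes were called higher and 0.333% lower. Tgfb3, a ligand of the TGF-beta family, was at 7.06, 7.24, 7.06 and 7.03 in control and 7.92, 8.24, 7.97 and 8.83 in TRAF2LC hearts and rose 2.21-fold (change 1.14 ± 0.20, adjusted p = 0.00683, and 0.0414 with the 2 genotypes alone). Thbs2, a matrix thrombospondin, was at 8.51, 8.37, 8.63 and 8.51 and 8.0, 8.11, 7.97 and 7.91 and fell by 0.51 (adjusted p = 0.0201). Of 30 matrix and TGF-beta genes tested 26 were higher, at a median of 0.16. Ccl11, the eosinophil chemokine eotaxin, was at 7.17, 7.09, 7.44 and 7.54 and 6.61, 6.75, 6.83 and 6.23 and fell by 0.71 (adjusted p = 0.0414). Lrg1, a secreted glycoprotein that modulates TGF-beta signals, was at 10.004, 9.98, 9.94 and 10.01 and 9.57, 9.42, 9.28 and 8.57 and fell by 0.77 (adjusted p = 0.0331). Its controls lay within 0.07 of each other, and TRAF2LC 4 was 0.71 below the next heart. The second probe of Ccl11 had a change of -0.57 and was not called. With the 2 genotypes alone only Tgfb3 of these 4 kept the call, at adjusted p of 0.103 for Thbs2, 0.133 for Ccl11 and 0.174 for Lrg1.

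**Figure D3:**
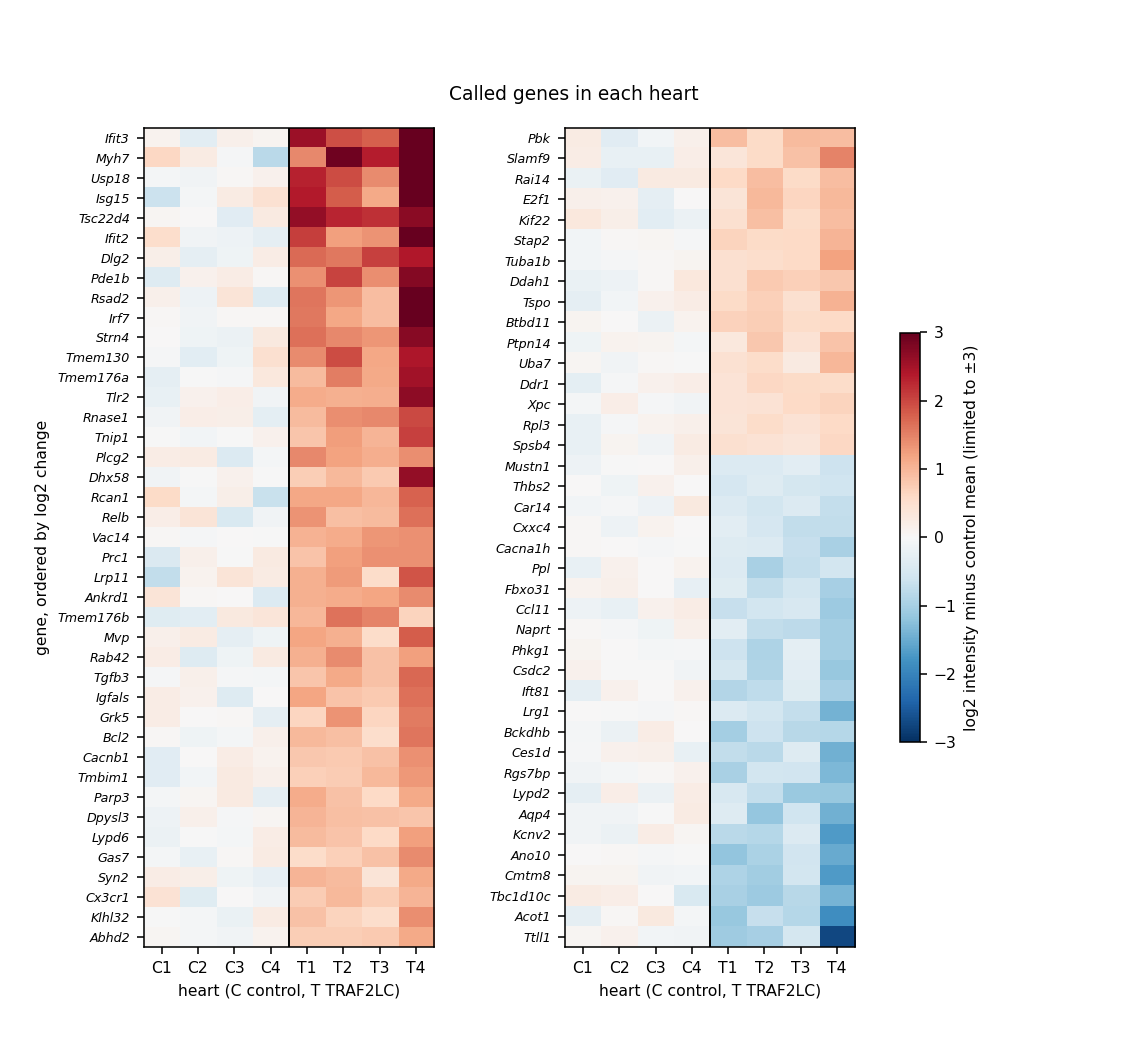
Log2 intensity minus the control mean (colour, limited to 3 either way) of the called named genes in the 4 control (C1 to C4) and 4 TRAF2LC hearts (T1 to T4), ordered by log2 change; a gene is shown by its brightest tested probe if that was called and otherwise by the called one. Columns T1, T2 and T3 have similar shades in most rows and T4 is the darkest in many of them, on both the raised and the lowered side.

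Some of the genes that fell encode enzymes, set side by side here after they were called. Acot1, which frees fatty acids from coenzyme A in the cytosol, had both probes called. The brighter was at 9.27, 9.57, 9.83 and 9.47 in control and 8.40, 8.86, 8.67 and 7.67 in TRAF2LC hearts and fell by 1.14 (adjusted p = 0.00913), 2.20-fold. The dimmer fell by 1.05 (adjusted p = 0.00915) and was the only lowered probe called in every setting that tested it. Bckdhb, a subunit of the enzyme that breaks down branched-chain amino acids, was detected on 2 TRAF2LC arrays, so its decrease has no exact size. It was at 6.35, 6.24, 6.62 and 6.42 and 5.38, 5.79, 5.57 and 5.55. Bckdhb fell by 0.83 on these values (adjusted p = 0.0276, and 0.0296 with the 2 genotypes alone). Ces1d, a lipid-splitting carboxylesterase, was at 11.13, 11.30, 11.32 and 10.94 and 10.43, 10.37, 10.79 and 9.72 and fell by 0.85 (adjusted p = 0.0395). Naprt, the entry enzyme for nicotinic acid into NAD, fell by 0.72 (adjusted p = 0.0197) and Phkg1, a catalytic subunit of phosphorylase kinase, by 0.72 (adjusted p = 0.0372). Car14, a membrane carbonic anhydrase, fell by 0.52 (adjusted p = 0.0303). Both dimmer probes of Naprt were lower and not called (-0.35 and -0.33). With the 2 genotypes alone the dimmer probe of Acot1 and Bckdhb stayed called, and the calls were lost for the brighter probe of Acot1 (0.0992), Ces1d (0.155), Naprt (0.103), Phkg1 (0.116) and Car14 (0.18).

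In the 3 metabolic lists 1 gene was called, where 0.782% of all genes were called higher and 0.333% lower. Of 34 fatty acid genes tested 29 were lower and Acot1 fell, at a median of -0.16, and -0.06 without TRAF2LC 4. Of 53 subunits of oxidative phosphorylation 43 were lower and 0 were called, at a median of -0.11, and -0.05 without TRAF2LC 4. The medians of these lists are near the size of the shift that median scaling gives to the median of all probes. The TCA cycle, glucose uptake and glycolysis list had 17 of 33 lower and 0 called, at a median of -0.03, against 3619 of 6902 genes lower in all. Mitochondrial ribosomal proteins were lower in 43 of 63, at a median of -0.07, which was 0.07 with median scaling and -0.02 without TRAF2LC 4, the heart medians being 0.00, -0.03, 0.04 and -0.23. By heart the fatty acid median was -0.20, 0.00, 0.01 and -0.38 in TRAF2LC 1 to 4, so it was not shared by TRAF2LC 2 and 3. Cytosolic ribosomal proteins had a median of 0.00 over 55 genes, with Rpl3 called (1.41-fold higher).

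Ttll1, a tubulin polyglutamylase, had the largest decrease, from 10.13, 10.19, 9.99 and 9.97 in control to 9.0, 9.07, 9.54 and 7.35 in TRAF2LC hearts, 2.52-fold (change -1.33 ± 0.31). Its adjusted p was just under 0.05, the change was -0.87 without TRAF2LC 4, and its second probe was not called. Ift81, of the particles that move along cilia, fell on its dimmer probe by 0.76 (adjusted p = 0.0339), while its brighter probe was not called (-0.56, adjusted p = 0.237). Cmtm8, a membrane protein of the chemokine-like family, fell on both probes, from 9.24, 9.24, 9.05 and 9.07 to 8.23, 8.10, 8.61 and 7.45 on the brighter (change -1.06 ± 0.17, adjusted p = 0.005). Tbc1d10c, which acts on Rab GTPases and calcineurin, was at 9.19, 9.13, 8.95 and 8.48 and 7.96, 7.84, 8.11 and 7.55 and fell by 1.08 (adjusted p = 0.0141, and 0.0414 with the 2 genotypes alone). Rgs7bp, which anchors regulators of G proteins, fell by 0.86, Aqp4, a water channel detected on 2 TRAF2LC arrays, by 0.90, and the surface protein Lypd2 by 0.87. Smaller decreases were those of Csdc2 (1.65-fold), the cell junction protein Ppl (1.58-fold), Fbxo31 on its dimmer probe (1.59-fold), Cxxc4 (1.5-fold) and Mustn1 (1.36-fold), whose second probe was not called (-0.33). Ppl and Cxxc4 were each detected on 2 TRAF2LC arrays. Of the 28 lowered probes only 4 stayed called with the 2 genotypes alone, those of Tbc1d10c, Ano10, Bckdhb and the dimmer one of Acot1. The adjusted p there was 0.26 for Ttll1, 0.0897 and 0.116 for the probes of Cmtm8, 0.102 for Ift81, 0.0913 for Rgs7bp, 0.155 for Aqp4 and 0.0996 for Lypd2.

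The largest change of all was on a probe with no gene name here (ILMN_2889832), singled out after its values were seen. It was at 6.12, 5.96, 6.05 and 6.01 in control and 9.50, 9.53, 9.18 and 10.14 in TRAF2LC hearts. The rise was 11.7-fold (change 3.55 ± 0.26, adjusted p = 7.97e-07). In IkBaDN hearts its mean was 6.16 and in double transgenic hearts 6.67.

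Whether the TRAF2 effect differed when the IkBaDN transgene was also present was asked by the interaction of both transgenes in the same fit, which called 2 of 9449 probes (0.0212%), Tsc22d4 and that unnamed probe. Tsc22d4 had means of 8.35 in IkBaDN and 8.44 in double transgenic hearts, an interaction of -2.38 ± 0.24 (adjusted p = 0.00016). The unnamed probe (ILMN_2889832) had an interaction of -3.03 ± 0.36 (adjusted p = 0.00121). For other leading genes the means in IkBaDN and double transgenic hearts were 6.47 and 6.65 for Myh7, 6.6 and 6.55 for Pde1b and 4.75 and 7.84 for Dlg2, and their interaction was not called (adjusted p = 0.18, 0.107 and 0.107).

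The 4 TRAF2LC hearts were then compared with each other. The root mean square log2 difference of a heart from the mean of the other 3, over all tested probes, was 0.306, 0.291, 0.292 and 0.413 in TRAF2LC 1 to 4 and 0.302, 0.248, 0.279 and 0.307 in the controls. The group means differed by 0.042, which a two-sided permutation test of these distances did not separate (p = 0.2857 over 70 splits, where 0.0286 is the smallest it can give). The distances were kept fixed in the permutation and those within a genotype share hearts. The p is therefore not exact and only a guide. TRAF2LC 1, 2 and 3 lay within the range of the controls and TRAF2LC 4 above it. The median SD of a probe was 0.216 among TRAF2LC and 0.184 among control hearts, and 0.174 among TRAF2LC 1 to 3. An SD over 1 was found on 29 probes in TRAF2LC, 11 in control and 8 in TRAF2LC 1 to 3.

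**Figure D4:**
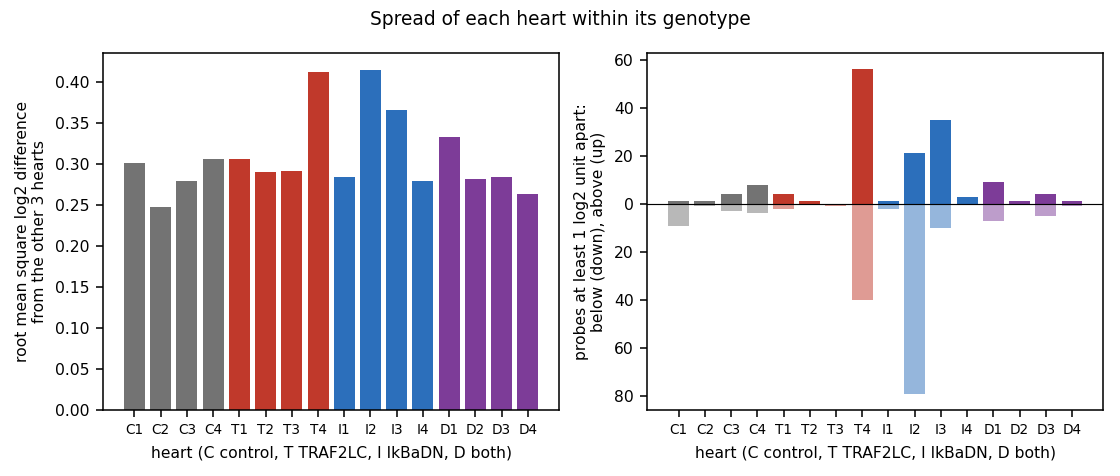
Left, root mean square log2 difference of each heart from the mean of the other 3 of its genotype over 9449 probes. Right, number of probes on which a heart lay at least 1 log2 unit above (up) or below (down, paler) all others of its genotype. TRAF2LC replicate 4 (T4) reaches 0.413 with 56 and 40 probes, T1 to T3 reach at most 0.306 with at most 4 and 2, and IkBaDN replicate 2 (I2) is the only other heart with as many probes apart.

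TRAF2LC 4 lay at least 1 log2 unit beyond the other TRAF2LC hearts on 96 probes, 56 higher and 40 lower, against 6, 1 and 1 for TRAF2LC 1 to 3. On the 56 higher probes 26 belonged to the interferon and antigen presentation lists and 12 were called. There the other 3 hearts had a median change of 0.40 from control, and on 36 probes all 3 lay above the control mean. IkBaDN 2, a heart without the TRAF2 transgene, was the highest of its genotype on 29 of the same 56 probes. On the 56 its median difference from its other 3 hearts was 0.39. No heart of the controls or the double transgenic mice was highest on more than 17. IkBaDN 2 had the lowest mean deposited signal (129.5) and the fewest detected probes (7948) of all arrays. It stood apart from its genotype on 100 probes, 79 of them lower. The part of the weak array in this likeness was not tested. Igtp showed the widest gap, TRAF2LC 4 being 2.73 above the next heart, followed among interferon genes by Irgm2 with 2.38, at 8.83, 8.90, 8.91 and 11.29 against 8.49, 8.27, 8.34 and 8.47 in control. Gbp3 was at 7.47, 7.10, 7.33 and 9.52 against 6.43, 6.33, 6.62 and 6.93, so that TRAF2LC 1 to 3 too were above the controls.

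On the 40 lower probes the picture was another. There the other 3 TRAF2LC hearts had a median change of -0.05, 1 probe was called (Ttll1), and the genes were of several kinds. Kcnd2, a transient outward potassium channel, was at 8.48, 7.96, 8.24 and 7.48 in control and 7.58, 7.44, 7.46 and 5.36 in TRAF2LC hearts. The value in TRAF2LC 4 lay below that array's detection limit of 5.41, so this gap has no exact size. Cacna2d1, a calcium channel subunit, was at 11.55, 11.19, 10.92 and 10.36 and 11.28, 10.69, 10.60 and 8.72. The muscarinic receptor gene Chrm2 was at 9.92, 9.24, 9.27 and 8.76 and 9.42, 9.06, 8.81 and 7.10, and the RNA helicase gene Ddx6 at 9.03, 8.66, 8.38 and 8.10 and 8.93, 8.43, 8.35 and 6.58. None was called, and control 4 was the lowest control for each of the 4. Over the 40 probes control 4 was the lowest control on 26, IkBaDN 4 the lowest of its genotype on 23 and double transgenic 4 on 28. In each genotype replicate 4 is the array with the highest number in its description, and the part of that number in the result was not tested. Gaps of the other TRAF2LC hearts were few: Il6st, the shared receptor of the IL-6 family, was below detection in TRAF2LC 1 and detected in the other 3 (4.53, 6.55, 6.70 and 6.57), and the airway gene Scgb1a1 was detected in TRAF2LC 1 alone of its group (6.82, 4.81, 4.73 and 4.83), so these gaps have no exact size.

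Against the control mean the called probes had median changes in their own direction of 0.88, 0.92, 0.79 and 1.41 in TRAF2LC 1 to 4. Each of the 98 lay beyond the control range in each of the 4 hearts, which follows from the absence of overlap. The genes with the least spread among TRAF2LC hearts for the size of their change were Dpysl3, Tsc22d4, the ankyrin repeat gene Btbd11 (7.83, 7.88, 7.70 and 7.74 against 7.23, 7.16, 6.96 and 7.24), Vac14 and Plcg2, with SDs of 0.08 to 0.25. On 76 of the 98 called probes the SD was larger in TRAF2LC than in control, as it was on 60.8% of all probes.

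**Figure D5:**
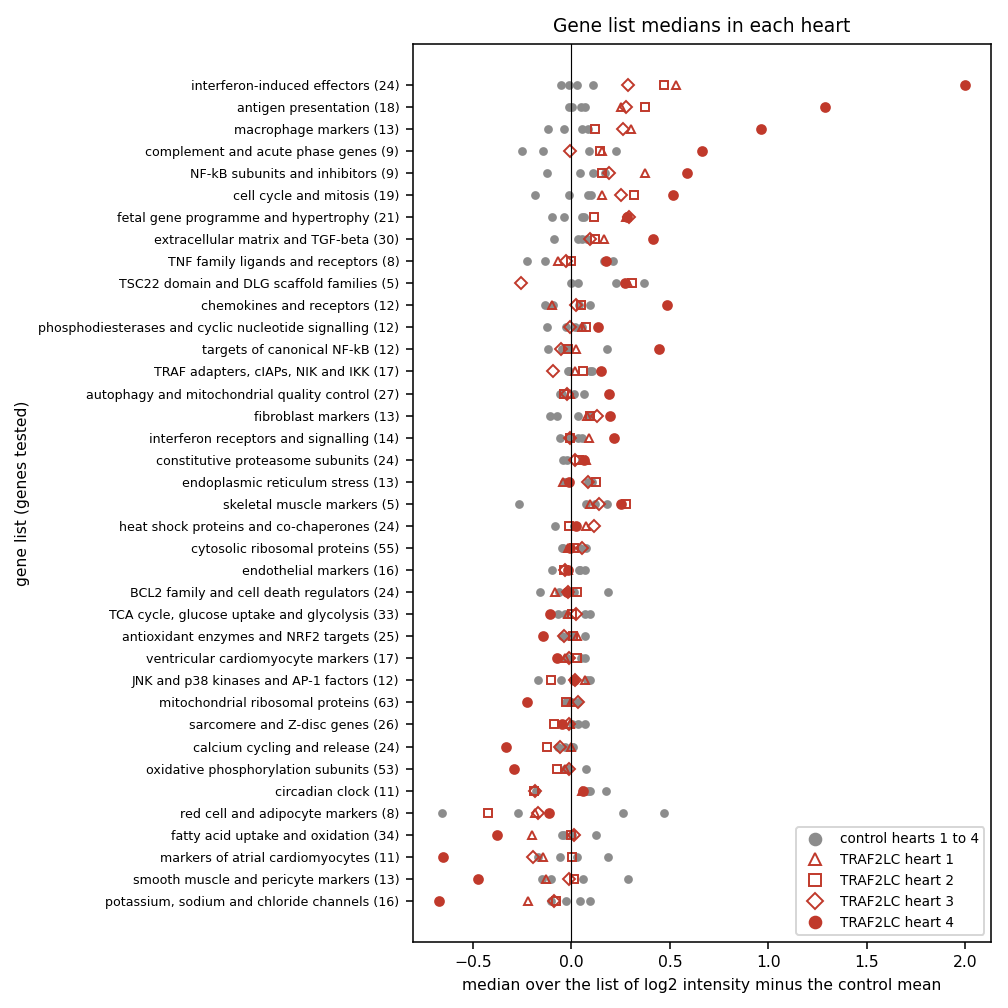
Median over each gene list (number of genes tested in parentheses) of log2 intensity minus the control mean, for the 4 control hearts (grey) and the 4 TRAF2LC hearts (red symbols), for the 38 lists with 5 or more tested genes. TRAF2LC 4 (filled) stands far to the right for interferon effectors and antigen presentation, 2.00 and 1.29, and to the left for channels, at -0.67, while the other 3 hearts stay closer to 0.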

How the data were processed

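Intensities and detection p-values come from the deposited non-normalized table: per the labels biotin-labelled total RNA of left ventricle, 1 array per heart, and the authors had subtracted background, since 14378 of 25697 probes lie below 0 on some array. The deposited detection p-value sets a probe against the array's negative controls. BeadStudio and GenomeStudio are the tools listed in the submitters' processing notes, which give no steps. The series matrix deposited by the authors holds the same intensity times 1 factor per array (mean 276.08) and served as an alternative.

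Intensities were corrected with nec (offset 16), quantile normalized and fitted on the log2 scale with limma 3.58.1 (R 4.3.3): 16 arrays, 4 genotype means, empirical Bayes with 12 residual and 4.53 prior degrees of freedom, Benjamini-Hochberg. The scripts were tested on simulated data. Groups follow the labels, and the design text gives 4 hearts per genotype. Same-numbered control and TRAF2LC arrays deviate with correlations of 0.41, -0.29, 0.29 and 0.03. Arrays also deviated together by column set, so these values cannot decide whether replicate numbers pair hearts. The labels pair none. Where a gene had several tested probes, the brightest stands for it. A group detected on 0 arrays is set at the detection limit. Of the probes 23978 have 1 symbol and 1719 none. Precision is limited by the 4 arrays per genotype.

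Named are Traf2, Nfkbia, Myh6 and Relb, any called gene with a symbol that is not a predicted one (the 15 largest increases and decreases always), up to 4 called members of each of 41 lists or else the one of smallest p, the 10 widest gaps of 1 TRAF2LC heart each way, and the 10 called genes of least relative spread; Rela, Tnfsf13b, Nppa, Nppb, Birc5, Mcm2, B2m, Tsc22d1, Tsc22d3, S100a8 and the unmeasured markers were added to show list members. The hearts, lists and rules were chosen with earlier results of these data known.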

Additional observations from a re-analysis of the deposited data

Results flagged for a closer look

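Of 331 sets of 4 values examined, 29 had a heart whose gap to the nearest other, as a share of the group's range, passed Dixon's critical value for 4 samples; chance flags about 1 set in 20. The sets include genes named for the gap of 1 TRAF2LC heart (among them Igtp, Irgm2, Gbp3, Kcnd2, Il6st, Scgb1a1 and Golga2), which were chosen for such a gap, so the 29 cannot be read against that rate. TRAF2LC 4 was the highest heart of its group for Tlr2 (share 0.97), Irgm2 (0.967), C1qc (0.939), Junb (0.91), Dhx58 (0.882), Igtp (0.875), Abhd2 (0.865), Gbp3 (0.849) and Tuba1b (0.834), and the lowest for Kcnd2 (0.938). Among list medians it was highest for antigen presentation (0.88), autophagy and mitochondrial quality control (0.859), interferon effectors (0.857) and canonical NF-kB targets (0.845), and it had the largest distance from the other hearts (0.876). Of the other TRAF2LC hearts, TRAF2LC 1 was highest for Scgb1a1 (0.949) and lowest for Il6st (0.931), TRAF2LC 2 was lowest for Pbk (0.919) and for the fetal and hypertrophy list (0.928), and TRAF2LC 3 was lowest for Mrpl38 (0.836) and for the list of TSC22 and DLG families (0.941). In the controls, control 2 was lowest for Irf7 (0.904) and Ifit3 (0.87) and highest for Tgfb3 (0.869), control 4 was highest for Scgb1a1 (0.902) and Lamp1 (0.848) and lowest for Golga2 (0.86), control 1 was lowest for the heat shock list (0.94) and control 3 highest for oxidative phosphorylation (0.834). Irf7 was detected on 0 control arrays, so the order of its controls has no meaning. The flags of Scgb1a1, Il6st and Kcnd2 set detected hearts against values below detection.

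The effect of the TRAF2 transgene on Tsc22d4 differed with and without the IkBaDN transgene, by -2.38 in the interaction term (adjusted p = 0.00016).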

How the results depend on the processing

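The main fit called 98 probes, and 8 alternatives stayed within 1.5 times of that, from 67 without background correction to 117 with the column set as a block. Fewer were called with the 2 genotypes alone (34), with those and without TRAF2LC replicate 4 (43, an alternative chosen after seeing the data), on probes detected on all 16 arrays (60, of 6904 tested) and with no filter (54, of 25697 tested). Leaving out 1 array gave 40 to 97 calls, and the count fell by over 1.5 times without TRAF2LC 2 (61), TRAF2LC 4 (50) and control 1 (46), 2 (40), 3 (50) or 4 (57). Of the 98 probes 25 were called in every one of the 19 planned settings that tested them. The interaction, 2 calls, gave 4 without background correction, 4 with median scaling, 5 with the authors' scaled values, 18 with array weights and 2 to 11 without 1 array, with 7 without TRAF2LC 1 and 11 without TRAF2LC 4. The difference in spread of 0.042 lay between 0.036 and 0.076 in 4 alternatives (p = 0.0571 to 0.4286 by the same permutation of fixed distances). The causes were not tested.

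Same-numbered hearts are not paired by the labels. With the number as a replicate block 113 probes were called, 91 of them among the 98.

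Directions turned for genes whose changes were not called. Myh6 was at -0.031 with the authors' scaled values and Scgb1a1 at 0.053 with the P number run of the descriptions as a block. Leaving out 1 array, the change ranged from -0.129 to 0.176 for the brighter probe of Cacnb1, from -0.868 to 0.331 for Ucp1, from -0.983 to 0.515 for Scgb1a1, from -0.835 to 0.009 for Bach1 and from -0.752 to 0.032 for Ddx6, of which Bach1 (0.009) and Ddx6 (0.032) also turned with the 2 genotypes alone and without TRAF2LC 4. With the 2 genotypes alone 54 named genes lost the call, and with the P number run as a block 15. Many of the 122 named genes had no call to lose. By brightest probe the main fit called 54 genes higher and 23 lower among all 6902. Signal over background limits genes detected on 0 control arrays, whose changes are bounds.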

Other observations

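Chromosome 15 held 10 called genes among 291 tested genes (3.44%), and no other chromosome more than 2.3% (6 of 261 on chromosome 19). In RefSeq order, a stretch of 20 tested genes from Csdc2 to Tspo on chromosome 15 held 4 called ones, of which Csdc2, 1700029P11Rik and Ttll1 fell and Tspo rose. Lypd2 and Naprt, which fell, are 10 tested genes apart on the same chromosome, and Pde1b, Tuba1b, Rpl3 and Rai14, which rose, lie elsewhere on it. In double transgenic minus IkBaDN hearts, which differ by the same transgene, Lypd2 had a difference of -0.61 and 1700029P11Rik of -0.41, both in the direction of the change in TRAF2LC, and Ttll1 of 0.04, Tspo of 0.11 and Pde1b of -0.05. The chromosome was singled out after the counts were seen and was not tested.

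Mybpc2, the fast skeletal form of myosin binding protein C, was picked out with its values in view. It was at 6.15, 8.15, 8.18 and 5.12 in TRAF2LC and 5.01, 5.01, 6.79 and 4.86 in control hearts, high in TRAF2LC 2 and 3 and in control 3. It was detected on 1 control and 3 TRAF2LC arrays, so the lowest values have no order. TRAF2LC 2 and 3 and control 3 are the only hearts of the 8 in the last of the 3 runs of P numbers in the descriptions, and they stand in the last set of columns, as does control 4, where it was low. The part of either in the result was not tested. It was not called (change 1.48, adjusted p = 0.31). The skeletal muscle list, with 5 tested genes, had medians of 0.10, 0.28, 0.14 and 0.25 in TRAF2LC 1 to 4.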
